A study of Rattus norvegicus with 8 samples.

Results

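The 10 genes described here encode transcriptional regulators, most of which hold neural cells in an undifferentiated or glial state. The set is Id1, Id2, Id3 and Id4, the Notch-linked genes Hes1, Hes5, Hes6 and Hey1, and the glial and progenitor factors Sox2 and Sox9. They were taken by symbol from tables of 26405 rat genes, of which 18310 carry a symbol, and all 10 were found. Id3 was chosen for its axonal pattern, and the list was drawn up with the axonal results known, so the axonal values below are a description of genes selected on them. RNA came from cultures of hippocampal neurons of rat embryos, kept for 10 to 14 days in microfluidic devices that let axons grow into a chamber apart from the cell bodies. Axons alone received soluble oligomeric Abeta(1-42), a peptide linked to Alzheimer's disease, or vehicle for 24 h, and RNA of the axonal chamber and of the chamber with somata and neurites was sequenced. The 4 groups (axons Abeta, axons control, soma Abeta and soma control) had 2 samples each, and all 8 samples came from this one culture type. The labels do not say whether duplicates were separate cultures; if they were not, the p-values cover technical spread alone.

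The Id proteins are helix-loop-helix proteins without a DNA-binding region. They bind the E proteins Tcf3, Tcf4 and Tcf12, which are the partners of proneural factors, and so keep those factors off DNA. Bone morphogenetic proteins (BMPs) switch on Id genes through Smad1, Smad5 and Smad4, and in neural cultures this response is known from progenitors and astrocytes. Hes1, Hes5 and Hey1 are DNA-binding repressors that are switched on when the cleaved Notch receptor joins Rbpj, whereas Hes6 opposes Hes1 and favours neuronal differentiation. Sox2 maintains neural progenitors and continues to be made in astrocytes, and Sox9 drives gliogenesis and is a common nuclear marker of astrocytes.

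The promoters of Id3, Id1, Hes1 and Hes5 are shown because these genes stand for the BMP-linked and the Notch-linked genes of the set. Id3 and Hes5 also had deposited axonal log2 fold changes of opposite sign, though that of Hes5 rests on 4 reads in all. Each window runs 5′ to 3′ on the gene's strand over 250 bases before and 50 after the start site in RefSeq's table for build GRCr8. Id3 is at chr5:153656041-153656340 on the plus strand, Id1 at chr3:161671314-161671613 on the plus strand, Hes1 at chr11:84212996-84213295 on the minus strand and Hes5 at chr5:170804327-170804626 on the plus strand. Capitals mark matches, on either strand, to 5 motifs. The first is TGGGAA, the core bound by Rbpj. The next are Smad motifs, the element CAGAC and the GC-rich box GGCGCC. The others are the N-box bound by Hes proteins, CACNAG, and the TATA box, TATAAA. No base lay in 2 motifs.
Id3: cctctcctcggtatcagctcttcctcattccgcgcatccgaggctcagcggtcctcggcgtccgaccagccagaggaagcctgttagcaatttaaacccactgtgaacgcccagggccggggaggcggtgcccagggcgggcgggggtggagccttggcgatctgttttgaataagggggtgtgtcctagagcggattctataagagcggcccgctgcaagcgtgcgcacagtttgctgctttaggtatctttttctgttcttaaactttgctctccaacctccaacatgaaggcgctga
Id1: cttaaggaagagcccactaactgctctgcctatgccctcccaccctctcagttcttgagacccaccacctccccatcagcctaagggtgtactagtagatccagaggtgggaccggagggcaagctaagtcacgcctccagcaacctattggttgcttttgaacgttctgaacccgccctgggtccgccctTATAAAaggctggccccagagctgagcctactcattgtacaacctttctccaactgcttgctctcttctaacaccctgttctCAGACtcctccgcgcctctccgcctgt
Hes1: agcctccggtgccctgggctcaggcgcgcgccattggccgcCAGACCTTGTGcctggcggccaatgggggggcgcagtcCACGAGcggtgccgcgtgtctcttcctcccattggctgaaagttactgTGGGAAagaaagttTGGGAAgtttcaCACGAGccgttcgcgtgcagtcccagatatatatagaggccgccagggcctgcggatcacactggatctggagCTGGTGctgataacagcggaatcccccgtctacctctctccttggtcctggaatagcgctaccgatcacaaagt
Hes5: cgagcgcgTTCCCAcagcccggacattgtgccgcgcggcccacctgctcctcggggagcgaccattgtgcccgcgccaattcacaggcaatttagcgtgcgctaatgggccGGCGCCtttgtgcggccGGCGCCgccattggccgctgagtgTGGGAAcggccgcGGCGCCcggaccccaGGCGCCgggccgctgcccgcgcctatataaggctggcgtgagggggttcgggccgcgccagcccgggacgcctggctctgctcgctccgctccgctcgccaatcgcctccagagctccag
TGGGAA occurred in 2 of the 8 members with a promoter in the table, Hes1 and Hes5, and in 25.7% of 33469 rat promoters of the same length. In Hes1 both matches were on the gene's strand, starting 123 and 109 bases before the start site. In Hes5 they started 242 bases before it, as TTCCCA, and 98 bases before it. CAGAC occurred in 2 of 8 members (Id1 and Hes1) and in 50.1% of all promoters. GGCGCC occurred in 2 of 8 (Id4 and Hes5, with 4 matches in Hes5), against 11.0% of all promoters. CACNAG occurred in 3 of 8 (Id2, Hes1 and Hes6), against 43.1%, and TATAAA in 2 of 8 (Id1 and Hes6), against 14.2%. The Id3 window held no match to any of the 5 motifs. These matches are letters in a short window and are not evidence of binding.

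The authors' deposited tables give 1 comparison of Abeta with vehicle per chamber but do not name the numerator. A positive log2 fold change is therefore called the positive side and a negative one the negative side, and no value below says which side was Abeta. The tables hold no column per sample, but the deposited mean normalized counts (gene counts divided by size factors) carry enough digits to recover the whole reads of each library. Recovered libraries are named by side and by number, cannot be matched to a sample title and enter no test. Axonal libraries held 231854 to 425420 recovered reads. The somatic libraries fell into a deep one on each side (2699568 and 3661660 reads) and a shallow one on each side (263117 and 290371 reads). Neuron markers were present in both chambers, with deposited means that summed to 849 in axons and 6905 in cell bodies over the 14 matched genes. Astrocyte markers were present as well, with sums of 2671 in axons and 13561 in cell bodies over 19 genes.

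In axons, Id3 was the member with the widest gap between the sides. It had 21.2 and 61.0 normalized counts in positive-side libraries 1 and 2, from 28 and 78 reads, against 1.05 and 2.70 in negative-side libraries 1 and 2, from 1 and 2 reads. Both positive-side libraries lay far above both negative-side ones, and the negative side held fewer than 3 reads in each library, where the floors are 3.15 and 4.05 normalized counts. The ratio of the read sums, corrected for library size, was 23.0 with a 95% interval of 7.66 to 113, which covers counting error only. In the authors' deposited table the log2 fold change of Id3 was 3.41 ± 0.87 (SE), with p = 9.09e-05 from the Wald test of DESeq2. Of the 8032 genes whose axonal mean was 10 or more, 9 had a deposited log2 fold change at or above that of Id3, itself included.

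Id3 has no adjusted p in the axonal table, nor has any other member. The authors' deposited table gives one to 1321 of 23879 genes with reads, the lowest at a mean of 44.8, and the highest axonal mean among members was 35.7, in Sox9. Of those 1321 genes, 23% had an adjusted p under 0.05. With the Benjamini-Hochberg adjustment taken over those 8032 genes, Id3 had an adjusted p of 0.0146 (Wald test of DESeq2 as deposited), in a set in which 1.01% of genes passed. Over every gene with reads, the adjusted p of Id3 was 0.0434 by the same test, and 0.218% of genes passed. Under both adjustments Id3 was the only one of the 10 members under 0.05. Id1, Hes1, Hes5 and Hey1, with means under 10, had no value in the first adjustment and could not pass it. The mean of Id3 reached 10 through its positive side alone (41.1, against 1.88 on the negative side). Id3 was chosen for its axonal pattern, so these adjusted values and the centred ones below describe it and do not test it. At an unadjusted p under 0.05 there were 3 members, namely Id3, Sox2 and Sox9, against 4.45% of all genes with reads. For the 2683 genes whose somatic mean was 100 or more, the axonal log2 fold changes centred on a median of 0.44. After subtracting it, the adjusted p of Id3 was 0.0217 over the 8032 genes and 0.0624 over every gene with reads (Wald test of DESeq2, centred). Among the 22558 genes with a p but no adjusted p, 6 had a smaller p than Id3, including Prss23, a serine protease, Il1r1, the interleukin-1 receptor, C1r, a complement protease, and Mdk, the growth factor midkine.

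**Figure D1:**
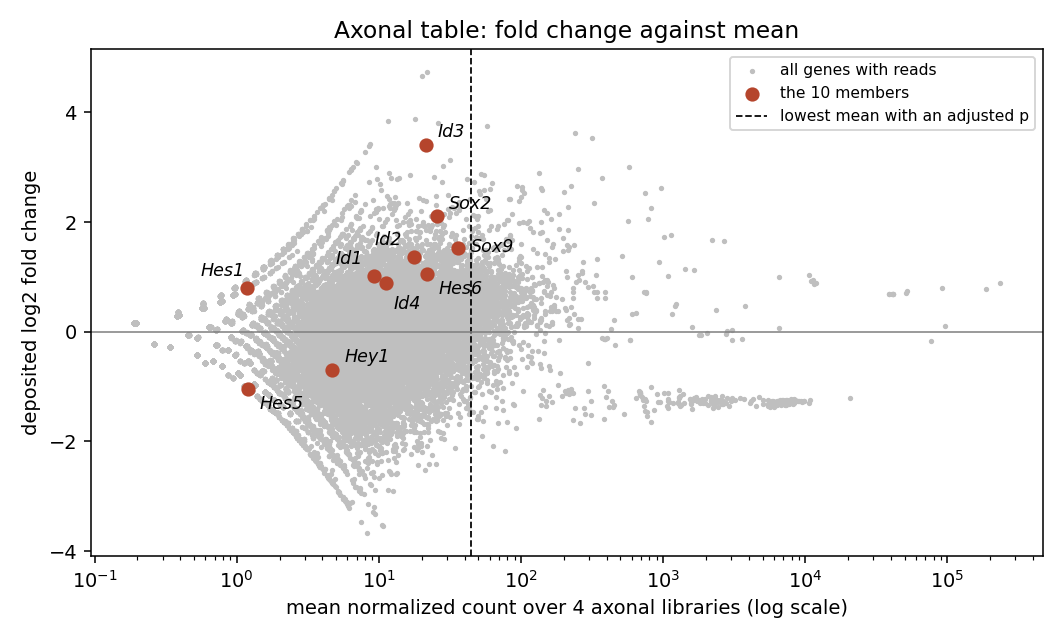
Deposited log2 fold change in axons against the mean normalized count over the 4 axonal libraries (log scale). Grey points are all genes with reads, red points the 10 members, and the dashed line at 44.8 marks the lowest mean with a deposited adjusted p. All 10 members lie left of the line, and Id3 stands highest among them at 3.41.

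The other Id genes had smaller gaps. Id2 had 36.3 and 17.2 normalized counts in positive-side libraries 1 and 2 (48 and 22 reads), against 3.15 and 13.5 in negative-side libraries 1 and 2 (3 and 10 reads). Its positive side was higher in both libraries, but positive-side library 2 was near negative-side library 2. The log2 fold change of Id2 in the authors' deposited table was 1.37 ± 0.85 (SE). Id1 had 8.31 and 18.8 normalized counts on the positive side (11 and 24 reads), against 7.35 and 2.70 on the negative side (7 and 2 reads), with a log2 fold change of 1.01 ± 0.95 in the authors' deposited table. Id4 had 13.6 and 17.2 on the positive side (18 and 22 reads), against 8.40 and 5.40 on the negative side (8 and 4 reads), and 0.88 ± 0.90 in the authors' deposited table. In all 4 Id genes both positive-side libraries were above both negative-side ones. For Id1, Id2 and Id4 the log2 fold change was under 2 standard errors.

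Among the Notch-linked genes, Hes6 was the only one with more than 20 reads in axons. Its normalized counts were 34.0 and 26.6 on the positive side (45 and 34 reads), against 13.7 and 12.2 on the negative side (13 and 9 reads). The libraries within each side were close to each other and the sides did not overlap. The authors' deposited table gives Hes6 a log2 fold change of 1.05 ± 0.75 (SE). Hey1 had 0 and 7 reads on the positive side (0 and 5.48 normalized counts), against 5 and 6 reads on the negative side (5.25 and 8.10 normalized counts), and its sides overlapped. Hes1 was found only in positive-side library 2, with 6 reads, against 0 reads in both negative-side libraries, where a count of 0 allows up to 3.15 and 4.05 normalized counts. Hes5 had 0 reads in both positive-side libraries, against 2 reads in each negative-side library. Both sides of Hes5 lie at or under the limit of 3 counts, so no fold is given.

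Sox2 and Sox9 were higher on the positive side. Sox2 had 45.4 and 42.3 normalized counts there (60 and 54 reads), against 2.10 and 13.5 on the negative side (2 and 10 reads). The positive-side libraries were nearly equal, the negative-side ones differed widely, and the sides did not overlap. The authors' deposited table gives Sox2 a log2 fold change of 2.10 ± 0.79 (SE, p = 0.00743, DESeq2). Sox9 had 45.4 and 64.2 normalized counts on the positive side (60 and 82 reads), against 10.5 and 23.0 on the negative side (10 and 17 reads), again without overlap. Its deposited log2 fold change in the authors' deposited table was 1.53 ± 0.68 (SE, p = 0.0242, DESeq2).

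Over all 10 members, both positive-side libraries were above both negative-side ones in 7, the reverse held in 1 (Hes5) and the sides overlapped in 2 (Hes1 and Hey1). Among the 20356 genes whose axonal mean was 1 or more, the shares were 18.9% and 22.6% for those 2 orders. The members had been selected on this comparison, so their share is read no further. The median deposited log2 fold change was 1.03 over the members, against -0.13 over all genes with reads. Over the 6 members whose mean reached 10 it was 1.45, against 0.15 over the 8032 such genes. That filter left out Id1, Hes1, Hes5 and Hey1, among them the 2 members with a negative log2 fold change. These medians rest on the same selection, so nothing further is read from them.

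**Figure D2:**
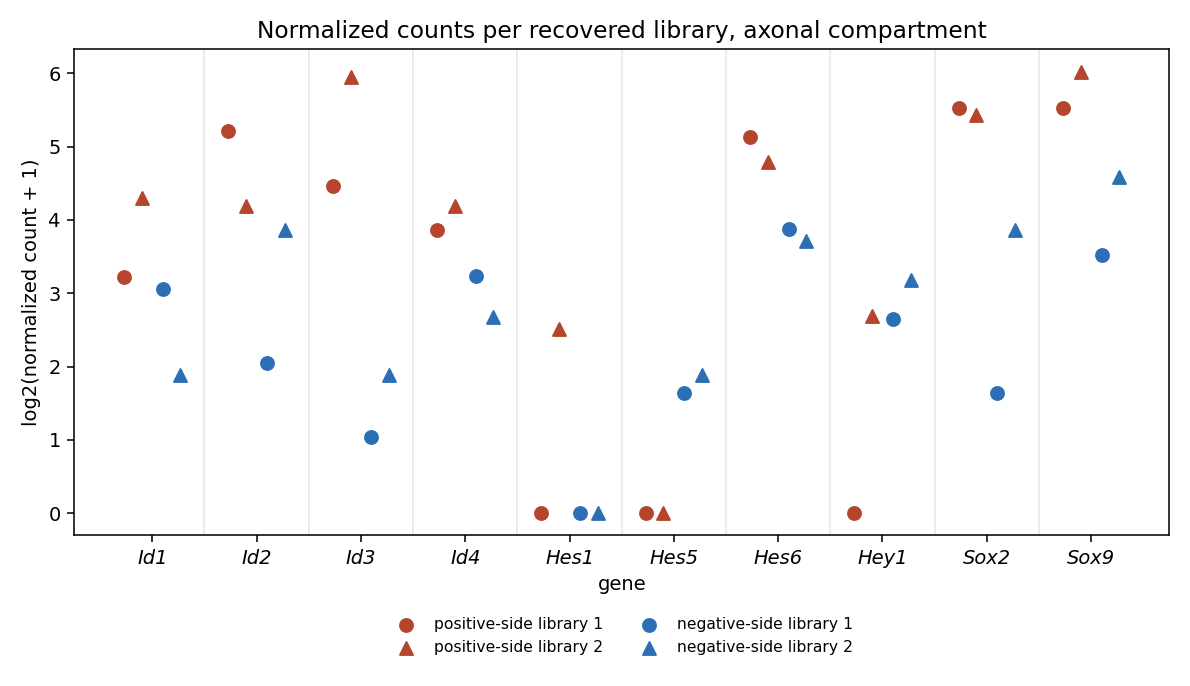
Normalized counts of the 10 genes in each recovered axonal library, on a log2(count + 1) scale. Red symbols are the positive-side libraries and blue symbols the negative-side ones, with circles for library 1 and triangles for library 2. Red lies above blue in 7 genes, by the widest margin in Id3, and blue above red in Hes5.

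Many, though not all, markers of astrocytes were higher on the positive side. Their summed normalized counts were 3933 and 4401 in the positive-side axonal libraries, against 854 and 1495 in the negative-side ones. Without Gfap and Vim, the remaining 17 summed to 1420 and 1607 on the positive side, against 472 and 928 on the negative side. Of 19 matched astrocyte markers, the authors' deposited table gives 12 an adjusted p, of which 6 passed, all on the positive side. Among all 1321 genes with an adjusted p, 23% passed. The log2 fold change in the authors' deposited table was positive in 13 and negative in 6, and none of the 19 was without reads. The negative ones include the transporters Slc1a2 (-0.82) and Slc4a4 (-0.77), named after their values were seen. Gfap, the astrocytic intermediate filament, had 1228 and 1530 normalized counts on the positive side, against 158 and 375 on the negative side. Vim, another glial filament, had 1286 and 1264, against 225 and 192. Aldoc and Glul, enzymes enriched in astrocytes, also passed, with log2 fold changes of 1.99 ± 0.54 and 1.80 ± 0.46 (SE) in the authors' deposited table. Fibroblast and meningeal markers summed to 429 and 879 on the positive side, against 234 and 226 on the negative side. Of 12, 3 have an adjusted p, and the collagen genes Col1a1 and Col1a2 passed. Without these collagens the remaining 10 summed to 116 and 144, against 145 and 138, and 9 of the 12 had a negative log2 fold change in the authors' deposited table. Neural progenitor markers summed to 369 and 425, against 325 and 292. Of 9, 4 have an adjusted p and 0 of these passed the authors' DESeq2 test. Microglia markers summed to 90.7 and 36.0 on the positive side, against 133 and 199 on the negative side, with 9 of 12 negative in the authors' deposited table. None of the 12 has an adjusted p there, and 2 had an unadjusted p under 0.05 (DESeq2), both on the negative side. In bulk RNA a change in the number of cells of a type and a change in RNA per cell cannot be told apart. The part of these cell types in the members' values was not tested.

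Per 1000 astrocyte marker counts of the same library, Sox9 stood at 11.5 and 14.6 on the positive side, against 12.3 and 15.4 on the negative side, and the sides overlapped. Gfap and Vim made up much of these counts, at 1228 and 1286 of 3933 in positive-side library 1. The other 17 markers summed to 1420 and 1607 on the positive side, against 472 and 928 on the negative side. The sides of that sum lay closer together, so the overlap of Sox9 depends on Gfap and Vim. Id3 stood at 5.38 and 13.9, against 1.23 and 1.81, and the sides did not overlap. Sox2 stood at 11.5 and 9.60, against 2.46 and 9.03, so that its positive side was higher but its second libraries were close. On this scale both positive-side libraries were higher in 2 members (Id3 and Sox2) and both negative-side ones in 2 (Hes5 and Hey1). Over the 20356 genes counted above, the shares on this scale were 1.98% and 62.4%, and since the members were selected on this comparison nothing further is read from their count. The remaining members, Id1, Id2, Id4, Hes1, Hes6 and Sox9, overlapped.

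The 5 genes whose axonal pattern was nearest to that of Id3 were Dkk3, FAM187A, Mdk, Ppap2b and Cp. Likeness was the root mean square distance of log2(normalized count + 1) over the 4 axonal libraries, after centring each gene, among 6708 genes whose mean reached 10 in both tables. Their distances were 0.42 to 0.50, against a median of 1.85 over these genes. Dkk3, a secreted Wnt modulator, had 28.0 and 76.7 normalized counts on the positive side, against 4.20 and 4.05 on the negative side. Mdk had 23.4 and 47.0, against 0 and 1.35. Cp, the copper-binding ferroxidase ceruloplasmin, had 575 and 603, against 29.4 and 60.8, and an adjusted p of 5.54e-12 in the authors' deposited table. All 5 had both positive-side libraries above both negative-side ones, as Id3 did and as did 18.9% of genes in the count above. They were picked by likeness to Id3 over these same libraries, so nothing is read from their shared order.

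In cell bodies the same 10 genes showed no called difference. By the authors' DESeq2 test 0 of 18995 genes had an adjusted p under 0.05 (0%), the smallest adjusted p in the table was 1.00, and at an unadjusted p under 0.05 there were 2 genes and 0 members. A count of 2 among 18995 genes is far fewer than a threshold of 0.05 gives without any difference. The somatic test was therefore conservative, and a missing call there says little. Id3 had 49.5 and 60.6 normalized counts in the deep and shallow positive-side libraries, against 29.4 and 43.8 in the deep and shallow negative-side ones. The positive side of this table lay above the negative side, by a smaller margin than in axons, and whether positive means the same treatment in both tables is not known. The authors' deposited table gives Id3 a somatic log2 fold change of 0.45 ± 0.52 (SE, p = 0.388, DESeq2). Within the deep pair the ratio was 1.68 (95% interval 1.31 to 2.18, counting error only) from 147 and 110 reads, and within the shallow pair it was 1.38 (0.65 to 3.01).

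Id2 and Id4 lay closer between sides, and the wider gap of Id1 came from 1 library. Id2, at 83.5 and 74.1 normalized counts on the positive side against 87.6 and 68.8 on the negative side, had a log2 fold change of 0.00 ± 0.49 (SE) in the authors' deposited table. Id4 had 154 and 77.4, against 172 and 100, and was higher in the deep library on both sides. Id1 had 9.09 and 30.3, against 8.28 and 9.38. The high Id1 value was that of the shallow positive-side library and came from 9 reads.

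Of the Notch-linked genes in cell bodies, Hes6 had 106 and 172 normalized counts, against 94.6 and 119, and Hes1 had 12.8 and 10.1, against 18.2 and 9.38, so the sides of both overlapped. Hes5 was nearly absent, with 4 and 1 reads on the positive side against 2 and 0 on the negative side. Hey1 went in opposite directions in the pairs of libraries. In the deep pair it had 29 reads on the positive side against 15 on the negative side, a ratio of 2.44 (95% interval 1.26 to 4.89, counting error only). In the shallow pair it had 5 against 7 reads, a ratio of 0.77 (0.19 to 2.81). Sox2 had 168 and 158 normalized counts on the positive side, against 182 and 113 on the negative side, with overlap. Both positive-side libraries were above both negative-side ones in 2 members, Id3 and Hes5, and the reverse held in 0. Among the 15120 genes whose somatic mean was 1 or more, the shares were 9.13% and 9.27%.

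**Figure D3:**
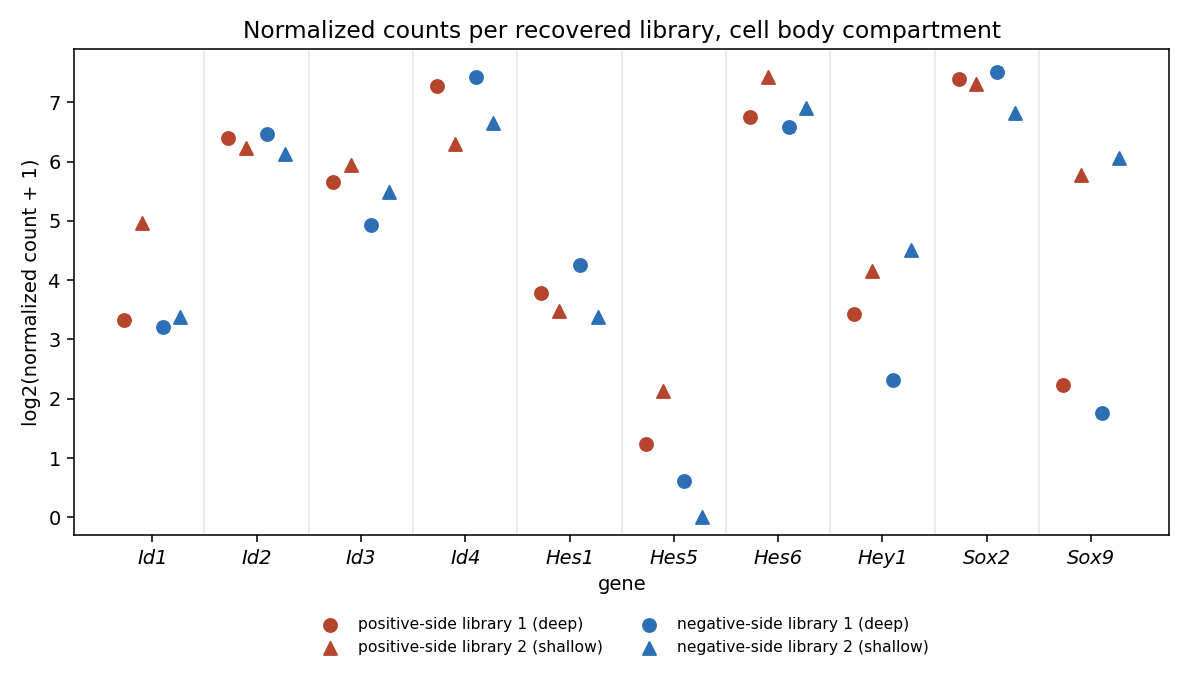
Normalized counts of the 10 genes in each recovered somatic library, on a log2(count + 1) scale. Red symbols are the positive-side libraries and blue symbols the negative-side ones, with circles for the deep and triangles for the shallow library of each side. Red and blue overlap in 8 genes, and both triangles of Sox9 lie far above its circles.

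Sox9 in cell bodies differed between deep and shallow libraries far more than between sides. It had 3.70 normalized counts in the deep and 53.9 in the shallow positive-side library, against 2.40 in the deep and 65.7 in the shallow negative-side library. These came from 11 and 16 reads on the positive side and from 9 and 21 reads on the negative side, so the deep libraries, with about the same or fewer Sox9 reads, held many more reads in all. The log2 of shallow over deep was 3.54 for the positive side and 4.29 for the negative side. Their mean of 3.92 was the 17th highest among 11049 genes whose somatic mean was 10 or more, and whose median was -0.11. Hey1 was next among the members at 1.46, and Id4 was lowest at -0.88. The somatic mean of Sox9, and any ratio built on it, therefore depends on which libraries are used, and what differed between deep and shallow libraries was not tested.

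**Figure D4:**
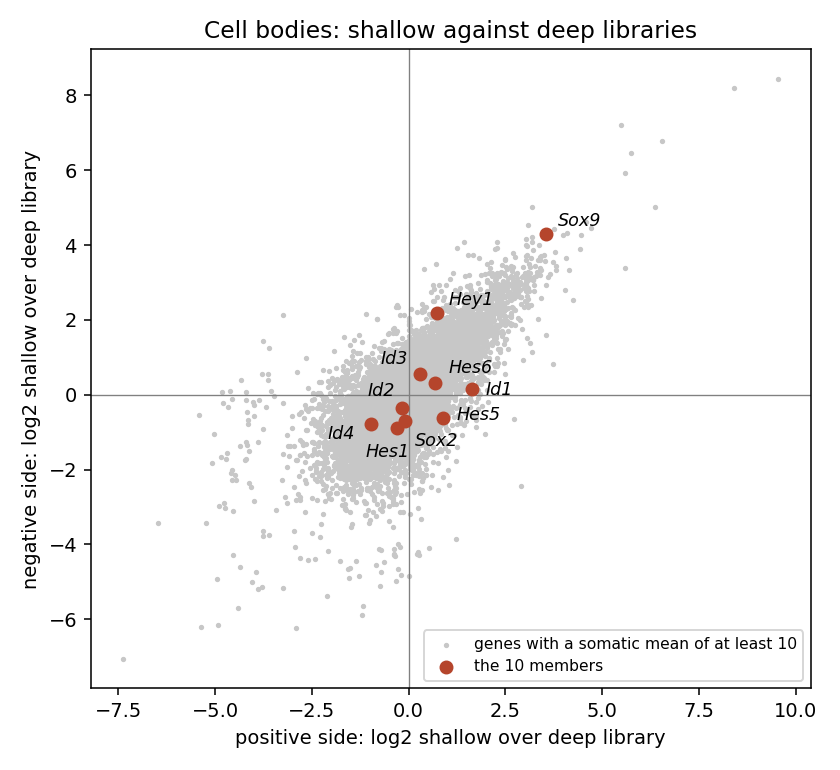
Log2 of the shallow over the deep somatic library on the positive side (horizontal) and the negative side (vertical), with 1 added to each normalized count. Grey points are genes whose somatic mean reached 10 and red points the 10 members. Sox9, at 3.54 and 4.29, lies far from the other members and in the upper tail of all genes.

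The axonal and somatic log2 fold changes were compared gene by gene as their difference over the combined standard error. For Id3 the axonal minus somatic difference was 2.96 ± 1.01 (SE), with p = 0.0035 and an adjusted p of 0.91 over 18406 genes (z test on the authors' DESeq2 values). Sox2 had a difference of 2.00 ± 0.92, Sox9 of 1.63 ± 0.89 and Id2 of 1.36 ± 0.98, all with an adjusted p of 1.00 in the same test. Thus 0 of 10 members passed, in a test that called 6 genes, or 0.0326%. At an unadjusted p under 0.05 there were 2 members, Id3 and Sox2, against 2.6% of all genes in the test. This subtraction takes the numerator to be the same treatment in both tables, which the headers do not state. With the somatic signs turned, the value for Id3 was 3.86 ± 1.01 (adjusted p = 0.18, z test on the authors' DESeq2 values), 0 members passed and 0.0326% of genes did. The gap between chambers in Id3 was not resolved by this test once all genes were counted, and its axonal value was known when Id3 was chosen. The test also carries the wide standard errors of the conservative somatic comparison, so a missing call does not show that the chambers were alike.

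**Figure D5:**
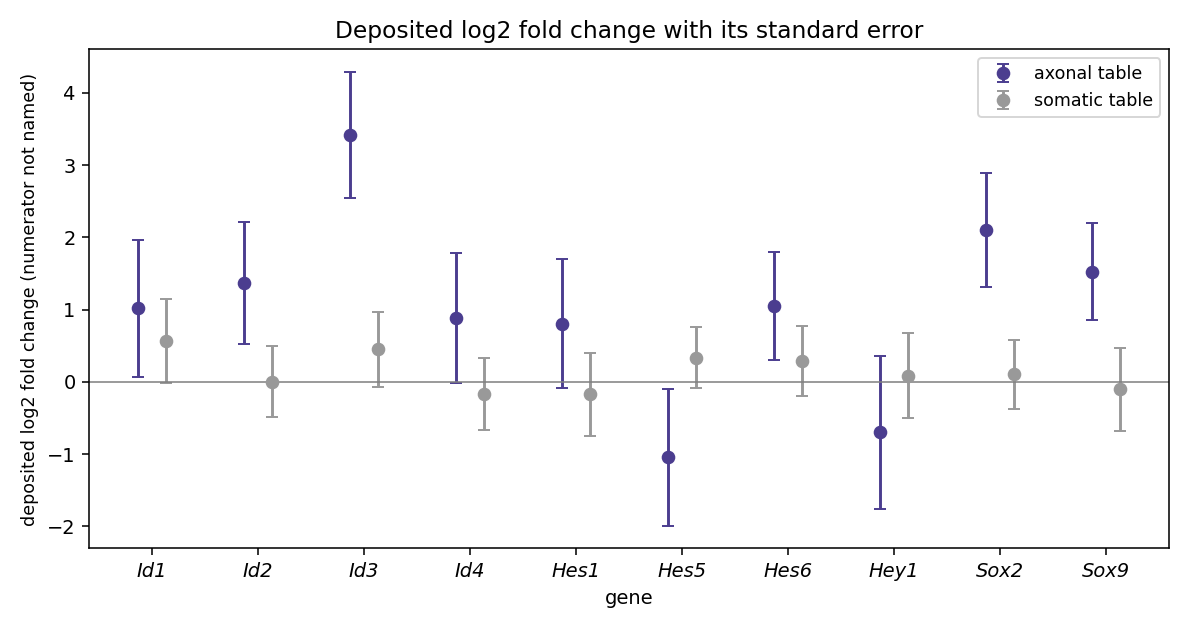
Deposited log2 fold change of the 10 genes in the axonal table (purple) and the somatic table (grey), with bars of 1 standard error. Axonal values spread between -1.05 in Hes5 and 3.41 in Id3, while the somatic ones lie within 1 standard error of 0.

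The balance between chambers was read from each gene's own mean in the tables, scaled to the sum of all means, and the tables had been normalized separately. The axonal over somatic ratio was 2.20 for Sox9, 1.77 for Hes5, 1.26 for Id1 and 0.91 for Id3. It was lower for Hey1 (0.69), Id2 (0.43), Hes6 (0.34) and Sox2 (0.32), and lowest for Hes1 (0.18) and Id4 (0.17). Among 13260 genes the median log2 ratio was -0.64, with Sox9 at percentile 86.6 and Id4 at percentile 2.09. These means pool both sides, which differ unequally: the axonal mean of Id3 was 41.1 on the positive side and 1.88 on the negative side, so its ratio describes neither. Scaled to genes with a symbol alone, the ratio of Id3 was 1.14, so its side of 1 depends on the scaling. The Sox9 ratio rests on the somatic mean that differed between deep and shallow libraries, and Hes5 on 4 axonal and 7 somatic reads.

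Genes that act around these factors were taken from lists of each pathway. In the BMP pathway, 0 of 11 ligands, 0 of 7 receptors and 0 of 8 signal transducers had an authors' adjusted p under 0.05 in axons (DESeq2), and none of these 26 genes had been given an adjusted p at all. The receptor Bmpr2 had 49.1 and 51.6 normalized counts on the positive side, against 11.6 and 23.0 on the negative side. Bmpr1a had 29.5 and 38.3, against 4.20 and 20.3. These were the only 2 of 7 receptors whose sides did not overlap. Both positive-side libraries were higher in these 2 and both negative-side ones in 0, against 18.9% and 22.6% of the 20356 genes counted above. Acvr1 overlapped at 10.6 and 18.8, against 13.7 and 13.5, and Acvr2a at 14.4 and 8.61, against 3.15 and 20.3. Of the transducers that carry the BMP signal to Id genes, Smad1 had 12.9 and 15.7, against 4.20 and 9.45, and Smad5 had 19.7 and 14.9, against 6.30 and 13.5, whereas Smad4 overlapped at 10.6 and 17.2, against 17.9 and 16.2. The ligands Bmp1, at 41.6 and 30.5, against 43.1 and 9.45, and Bmp3, at 24.2 and 8.61, against 59.9 and 23.0, overlapped. Bmp6 did as well, at 9.07 and 17.2, against 17.9 and 16.2. The deposited log2 fold change was positive in 3 ligands and negative in 8. Both negative-side libraries were above both positive-side ones in 5 of 11, each with a mean under 10, and the reverse held in 0. Over the 20356 genes counted above these shares were 22.6% and 18.9%. Among genes whose mean reached 10, the median deposited log2 fold change was -0.31 for 3 ligands, 0.67 for 4 receptors and 0.26 for 4 transducers, against 0.15 over all such genes.

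Of 16 matched BMP inhibitors, only 1 has an adjusted p in axons, and it passed. Htra1, a secreted serine protease that binds TGF-beta family proteins, had 67.3 and 146 normalized counts on the positive side, against 17.9 and 10.8 on the negative side. The authors' deposited table gives it a log2 fold change of 2.60 ± 0.63 (SE) and an adjusted p of 0.00111. It was much lower in cell bodies, at 3.70 and 10.1 on the positive side against 5.61 and 3.13 on the negative side. The ubiquitin ligases Smurf1 and Smurf2, which remove Smad proteins, overlapped between sides in axons.

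In the Notch pathway, 0 of 9 ligands, 0 of 4 receptors and 0 of 22 transducers passed in axons by the authors' DESeq2 test, with 3 of these genes having an adjusted p. Notch1 had 62.7 and 82.2 normalized counts on the positive side, against 39.9 and 49.97 on the negative side (adjusted p = 0.46 in the authors' deposited table, DESeq2). Notch2 had 73.3 and 107, against 32.6 and 86.4, and overlapped, and Jag1, a Notch ligand, had 49.1 and 31.3, against 32.6 and 35.1. Nrarp, a Notch-induced inhibitor of Notch signalling, was picked out after its values were seen. It had 0 and 0 normalized counts on the positive side, against 9.45 and 14.9 on the negative side, the same order as Hes5. Of the 17 transducers whose mean reached 10, 15 had a positive log2 fold change in the authors' deposited table, with a median of 0.73, against 0.15 over all such genes. In cell bodies the 4 receptors summed to 121 in the deep and 421 in the shallow positive-side library, against 106 in the deep and 485 in the shallow negative-side library. The median log2 of shallow over deep was 2.06 over the 3 receptors whose somatic mean reached 10, against 3.92 for Sox9.

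Among 3 E proteins and 4 Groucho family genes, only Tcf4 and Aes have an adjusted p in axons. Neither passed. The E protein Tcf4 had 138 and 190 normalized counts on the positive side, against 120 and 104 on the negative side (adjusted p = 0.46 in the authors' deposited table, DESeq2). Of the Groucho family, Aes had 85.4 and 104, against 27.3 and 59.4 (adjusted p = 0.19 in the authors' deposited table, DESeq2). Tle1 was higher on the negative side, at 14.4 and 8.61, against 23.1 and 16.2. Tle3 overlapped at 30.2 and 54.0, against 32.6 and 35.1. Of 7 other Hes and Hey family genes, all without an adjusted p, Bhlhe40 had 22.7 and 44.6, against 3.15 and 18.9, while Heyl overlapped at 16.6 and 2.35, against 26.3 and 9.45. No adjusted p is available in axons for the 15 matched proneural and neuronal bHLH genes or the 10 matched other Sox genes, so none could pass. Among those whose mean reached 10, the median log2 fold change was 0.32 over 5 bHLH genes and 0.16 over 3 Sox genes. Over all with axonal reads the medians were -0.25 and -0.43, with negative values in 9 of 14 bHLH genes and 7 of 10 Sox genes.

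RefSeq's GRCr8 table lists genes overlapping Hes5 (Pank4), Hes6 (LOC134480412), Id1 (LOC134486187) and Sox2 (LOC103691527). The sources used here do not say whether counting used strand, so reads of such pairs cannot be told apart.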

How the data were processed

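RNA sequencing covered 8 samples in 4 groups of 2, taken from the sample titles. The submitters' processing notes name DESeq2, SAMtools, TopHat2 and Trim Galore; their versions, the genome build, the annotation and the counter are not given in the sources that were used here. Per the file headers, the authors deposited for each chamber a mean normalized count (a signal over 4 libraries), a log2 fold change and its standard error, a Wald score, a p-value and its adjusted value. The deposited score equals the log2 fold change over its standard error. The deposited log2 values are drawn toward 0, more so in genes with few reads.

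The members and gene lists were chosen with earlier results of these data known. All 10 members are named; of each list up to 4 genes may be named, first those called in axons by size of change, then those of highest axonal mean, and 5 genes nearest to Id3. The authors' adjusted p under 0.05 was the call. Chambers were compared by a z test with Benjamini-Hochberg adjustment.

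Library counts were recovered from the means as deposited, since these have up to 15 significant digits and are sums of whole reads times a fixed unit per library. Every mean under 1000 was solved in exactly 1 way; of shifted decoys, 0% were solved under 200, and in axons 1.30% at 200 to 500 and 10.3% at 500 to 1000, so library values of Cp, Col1a1, Gfap and Vim are less certain. Means above 1000 were not solved. Both the recovery and the z test were tested on data made with known answers. Size factors were 1.32 and 1.28 (positive side), against 0.952 and 0.740 (negative side) in axons, and 2.97 and 0.297, against 3.74 and 0.320 in cell bodies. Ratio intervals are exact binomial ones at 95%; intervals and floors (3 counts per library) cover counting error only. Alternatives were other adjustments, centring, pseudocounts of 0.5 and 1, leaving out each library and other scalings. Python 3.11.15, pandas 2.3.3, scipy 1.17.1 and statsmodels 0.14.6 were used. Promoter windows and overlaps came from RefSeq tables.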

Additional observations from a re-analysis of the deposited data

Results flagged for a closer look

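Hes5 drew attention because its libraries lay in opposite orders in the deposited tables, which holds for the treatments only if both tables share a numerator. In axons both negative-side libraries were above both positive-side ones, while in cell bodies both positive-side libraries were above both negative-side ones. The axonal minus somatic difference of the deposited log2 fold changes was -1.38 ± 1.03 (SE), and the z test of this difference on the authors' DESeq2 values gave p = 0.18 and an adjusted p of 1.00, so it did not pass. With the somatic sign turned the value was -0.72 and the adjusted p 1.00 (z test on the authors' DESeq2 values). The orders rest on 0 and 4 axonal reads (positive and negative side) and on 5 and 2 somatic reads.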

How the results depend on the processing

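The number of members called in axons was 0 with the authors' adjustment, 1 (Id3) with the adjustment over genes whose mean was 10 or more, and 1 (Id3) over every gene with reads. After centring it was 0 over the genes with a deposited adjusted p. No member is among those genes, so this 0 and that of the authors' adjustment were fixed in advance. In 2 alternatives added after seeing the data, the number called was 1 for centring over genes whose mean was 10 or more and 0 for centring over every gene with reads. Fewer or more genes in the adjustment, and the shift of 0.44 on the log2 scale, are all that these settings change. Id3 was chosen for its axonal pattern, so none of these settings tests it. Calls in cell bodies and in the difference between chambers stayed at 0 under their 3 alternatives, and under the somatic signs turned, added after seeing the data. Of 158 alternative values of single members, which carry no call, 139 moved by less than the SD between libraries of a side (for chamber ratios, 0.5 on the log2 scale) and 19 by more. A sign changed in 18, namely 1 in axons, 16 in cell bodies and 1 chamber ratio. Leaving out any 1 library kept the sign of the recovered log2 ratio in 9 of 10 members in axons, Hes1 resting on positive-side library 2, but in only 3 of 10 in cell bodies. For Id3 in axons the ratio ranged between 2.95 and 4.43 on the log2 scale, lowest without positive-side library 2. No paired analysis was possible because the tables hold no column per sample and the recovered libraries carry no replicate number; the deep and shallow pairs are matched by depth alone. Depth is a further limit: the members had 4 to 169 axonal reads each.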
